A study of Homo sapiens with 12 samples.

Results

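The regions described here are m6A peaks that the authors' annotation places in introns, in A375 cells, a human melanoma line, with and without knockdown of the m6A demethylase ALKBH5. They were chosen by their annotation alone: every row marked intronic in the peak list of shALKBH5 cells, in the peak list of shCtrl cells and in the table that compares the groups. This gave 2225 of 46039 peaks in the shALKBH5 list, 2094 of 44304 in the shCtrl list and 134 of 6513 rows of the comparison table. Peaks in introns of noncoding RNAs carry another annotation, held 1 and 4 rows in the lists, and were left out.

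Both groups were A375 cells infected with a lentivirus, with the genotype given as ALKBH5 knockdown for shALKBH5 and wild type for shCtrl, the scramble control. The study's methods give a harvest at 48 h after infection for RNA-Seq and no time for MeRIP-Seq. Poly(A) RNA was fragmented, and each group has 3 input libraries and 3 libraries immunoprecipitated (IP) with an m6A antibody. The peaks came as 1 list per group, with no value per library, so peaks have no replicate check and are described without tests. Which ALKBH5 hairpin was used, and whether the libraries of a group came from separate cultures, is not given in the sources used here. The study's methods say in general that experiments were repeated independently, without naming the sequencing, so p-values measure the spread between these libraries, which may be technical. Expression was deposited as FPKM, fragments a level scaled to transcript length and library size, for 29696 genes in the input libraries, with no read counts, so depth is unknown. ALKBH5 itself stood at 3.39, 3.92 and 3.12 FPKM in the shALKBH5 libraries against 19.3, 17.8 and 17.6 FPKM in the shCtrl libraries. Of 8 melanoma and melanocyte markers, 7 were listed, and their sum ran from 267 to 271 FPKM in shALKBH5 and from 216 to 226 FPKM in shCtrl libraries, although PMEL, TYR and DCT were under 1 FPKM. Markers of dedifferentiated melanoma (AXL, NGFR and EGFR) summed to 51.3 to 53.2 FPKM against 110 to 124 FPKM, and 2 listed keratinocyte markers to 10.7 to 11.5 FPKM against 8.90 to 9.53 FPKM. Of 3 leukocyte markers only CD68 was listed, at 38.1 to 41.9 FPKM against 14.8 to 17.2 FPKM, while PECAM1 and CDH5 of endothelium summed to at most 0.0674 FPKM and the fibroblast markers to at most 0.920 FPKM in any library. The part of these marker differences in the expression results was not tested.

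N6-methyladenosine, or m6A, is added to RNA while it is being transcribed, by a complex built around METTL3 and METTL14, mostly at adenosines within short motifs that contain GGAC. Introns are removed and degraded soon afterwards, so they are rare in poly(A) RNA, and an intronic peak there can lie in a retained intron, in an unspliced transcript or in a separate gene that sits inside the intron. ALKBH5 removes the mark in the nucleus, where YTHDC1 and HNRNPA2B1, proteins that bind m6A or RNA near it, act in splicing and in the processing of microRNA precursors.

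The sequences that could be shown came from RefSeq tables, since no genome was used. The labels name mm10, a mouse build, but 522 of the 527 microRNA hairpins that could be matched by symbol lay at the chromosome, start and end given by RefSeq for GRCh38.p14, and that build was used. A microRNA hairpin is a short folded precursor, often cut out of an intron. MIR1184-1, a hairpin of 99 bases in an intron of F8, the gene of coagulation factor VIII, was the clearest case, because the intronic peak had the same start and end as the hairpin in both lists (chrX:154887360-154887458, minus strand). Its fold enrichment, the IP signal over input as the authors' caller gave it, was 5.38 in the shALKBH5 list and 6.30 in the shCtrl list. The mature sequence has 3 identical loci (MIR1184-1, MIR1184-2 and MIR1184-3), so reads could belong to any of them and the locus is uncertain. MIR6791, in GPR108, was partly covered by a shALKBH5 peak (fold enrichment 1.74), whose matched shCtrl peak was at 1.36. In the shCtrl list, peaks covered MIR4738 in H3-3B (fold enrichment 10.2, log10 FDR -1.19) and MIR4450 in SHROOM3 (6.38, over 26924 bp). Sequences of MIR4738 and MIR4450 are not shown. The mature RNAs of MIR1184-1 and MIR6791 are shown 5' to 3', with the seed, bases 2 to 8, in capitals. No seed is shared among them, and hsa-miR-6791-3p lies outside the peak.
hsa-miR-1184: cCUGCAGCgacuugauggcuucc
hsa-miR-6791-5p: cCCCUGGGgcugggcaggcgga
hsa-miR-6791-3p: uGCCUCCUuggucuccggcag

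The other stretches lie where an intronic peak of at most 1000 bp crossed a RefSeq start window, the 250 bases before to 50 after a gene's start, by at least 30 bases on the peak's own strand. There were 18 such crossings in the shALKBH5 list and 22 in the shCtrl list. The letters GGAC, searched on the strand of the peak only, were present in 8 of the 18 (44.4%) and 12 of the 22 (54.5%). In all 35116 windows, the same positions held GGAC in 32.8% and 30.4%, and the whole windows of 300 bases in 66.3%. A match is a description and marks no methylated site. The 6 stretches below, each cut to 30 bases with GGAC in capitals, were chosen after their values were seen, from peaks at a false discovery rate (FDR) of at most 0.05 that overlapped a peak of the other list. Each is named by the gene that starts in the window and by the host, the gene the authors list for the peak.
LOC105372401 in TGFB1, both lists, chr19:41310270-41310299, minus strand: cGGACttttcaaccgcccggcgggccccgc
FKBP11 in AC073610, shALKBH5 list, chr12:48925668-48925697, minus strand: ggcccgacccacgttataGGACagaacgtc
KCNH1-IT1 in KCNH1, shALKBH5 list, chr1:211133325-211133354, minus strand: gtccgaggtgtcgGGACgtgctctcggcgg
SPSB3, shCtrl list, chr16:1781814-1781843, minus strand: catttgtcaaaccGGACgacagaggaggag
ROBO3, shCtrl list, chr11:124876621-124876650, plus strand: cgaggagctgccaGGACtagggagggctgc
DGCR11 in DGCR2, shCtrl list, chr22:19048340-19048369, minus strand: tcctcagtggtgaGGACtcaggagagttta

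The TGFB1 peak spanned the same 240 bp in both lists, with fold enrichments of 2.19 in shALKBH5 and 2.24 in shCtrl cells. TGFB1 encodes the cytokine TGF-beta 1. The AC073610 peak of the shALKBH5 list, at 4.31, overlapped 2 intronic shCtrl peaks, at 3.67 and 15.3. KCNH1-IT1 is named as an intronic transcript of KCNH1, a potassium channel gene, and its peak was at 4.61 in the shALKBH5 and 21.1 in the shCtrl list. The SPSB3 peak was at 3.67 and 15.3, and the DGCR2 peak at 8.57 and 7.24. The shCtrl peak in ROBO3, an axon guidance receptor, was at 10.2 and overlapped no intronic shALKBH5 peak of ROBO3.

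Intronic peaks made up 4.83% of the shALKBH5 list (95% Wilson interval 4.64 to 5.03%) and 4.73% of the shCtrl list (4.53 to 4.93%). Their share among the rows of the comparison table was 2.06% (1.74 to 2.43%). All such intervals cover counting error alone, since peaks cannot stand in for replicates. The lists thus held nearly equal shares of intronic peaks, with 1556 host genes in the shALKBH5 list and 1521 in the shCtrl list.

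Intronic peaks were shorter than peaks in UTRs or coding exons. Their median genomic span was 241 bp in both lists, against 511 and 537 bp for 3'UTR peaks, 870 and 873 bp for 5'UTR peaks and 899 and 936 bp for coding exonic peaks (shALKBH5 and shCtrl in turn). The span of an exonic peak includes any intron that it bridges. Only 37 (1.66%) and 39 (1.86%) of the intronic peaks exceeded 10 kb, compared with 10.7% and 10.9% of all peaks. The widest, 141903 bp in the shALKBH5 list and 103255 bp in the shCtrl list, both lay in KCNJ6, a potassium channel gene, over the nested gene DSCR4.

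Their fold enrichment was not low. The median was 5.72 in the shALKBH5 list and 6.38 in the shCtrl list, against 4.95 and 5.11 for 3'UTR peaks and 4.08 and 4.06 for exonic peaks, and the highest intronic values were 75.9 and 71.5. Fewer of them were firm calls. An FDR of at most 0.05 was reached by 69.1% and 70.7% of intronic peaks and by 85.4% and 86.5% of all peaks. A stricter choice, a fold of 2 or more with an FDR no higher than 0.01, kept 1052 (47.3%) and 1032 (49.3%). A single pair of fold and p recurred often, with 142 intronic peaks (6.38%) at a fold of 7.35 in the shALKBH5 list and 150 (7.16%) at a fold of 7.66 in the shCtrl list. Over all peaks those pairs made up 3.17% and 2.88%. The files give no read counts for peaks, so the depth behind a fold is unknown.

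**Figure D1:**
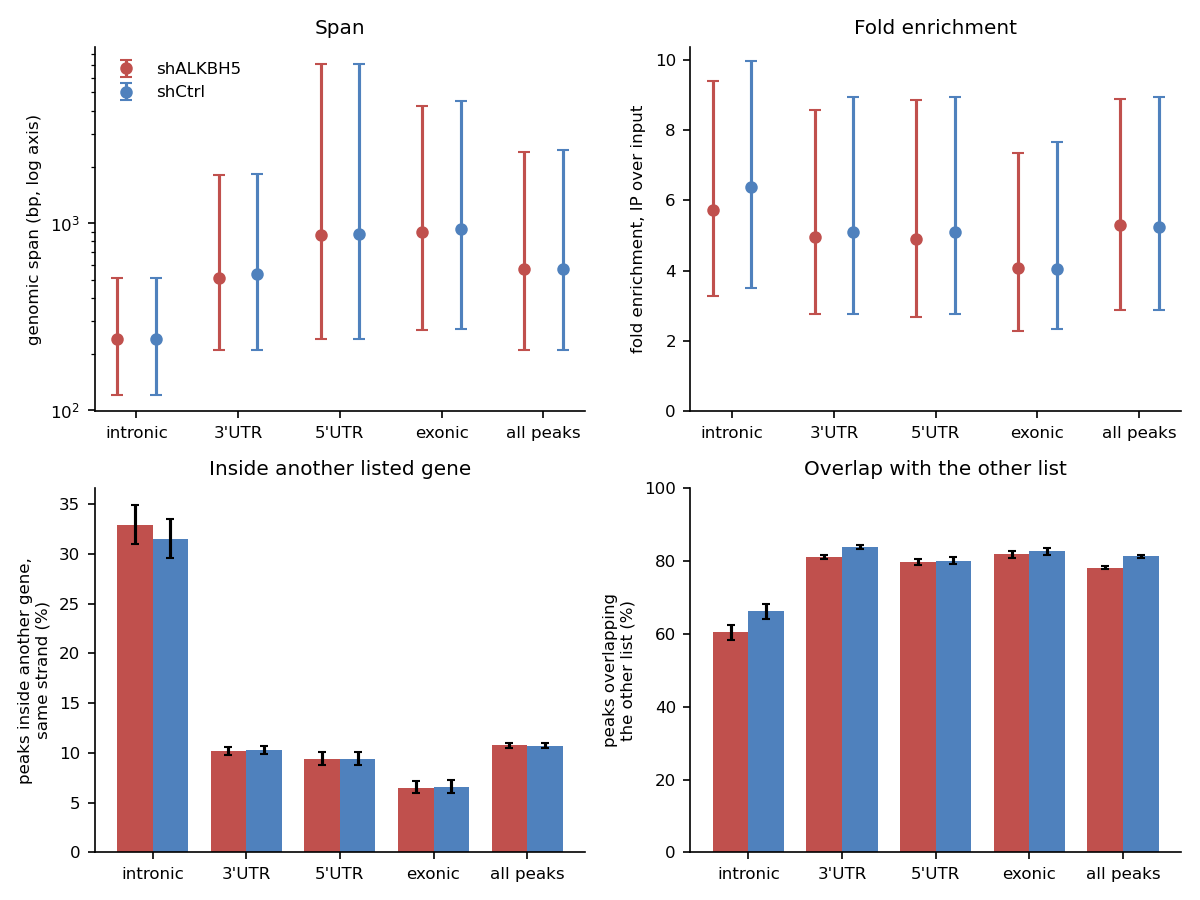
Peaks by region class in the shALKBH5 (red) and shCtrl (blue) lists. Top panels give the median with the interquartile range of genomic span (bp, log axis) and of fold enrichment of IP over input, and bottom panels give the percentage of peaks inside another listed gene of the same strand and the percentage overlapping the other list, with 95% Wilson intervals. Of the classes drawn, intronic peaks have the shortest spans (median 241 bp in both lists), the largest share inside another gene (32.9% and 31.5%) and the smallest overlap between lists (60.4% and 66.2%).

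Many intronic peaks lay inside a second gene. Of the shALKBH5 intronic peaks, 732 (32.9%, 31.0 to 34.9%) fell wholly within another listed gene on the same strand, with 1 bp of tolerance at each end. In the shCtrl list there were 660 (31.5%, 29.6 to 33.5%). The same held for 10.7% of all peaks in either list, for 10.2% and 10.3% of 3'UTR peaks and for 6.52% and 6.60% of exonic peaks. The nested peaks occupied 506 and 476 distinct inner genes. By the descriptions in the expression table, the smallest inner gene was a noncoding RNA for 322 and 278 peaks, a pseudogene for 278 and 252, a readthrough gene for 35 and 29, and another kind or without such a description for 97 and 101. Ribosomal protein pseudogenes, processed copies of the abundant ribosomal protein mRNAs, held 43 and 38 peaks. Reads of the host's unspliced RNA and of an inner gene on the same strand cannot be told apart here, and reads of a pseudogene can be shared with its parent gene, so the source of these peaks is uncertain.

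Some peaks matched the inner gene end to end. The span equalled a whole other gene, within 1 bp at each end, for 88 shALKBH5 intronic peaks (3.96%) and 83 shCtrl intronic peaks (3.96%), against 0.450% and 0.442% of all peaks. Pseudogenes accounted for 55 and 45 of these and noncoding RNAs for 31 and 34. Across the lists, 119 intronic peaks had the same start and end in both, and 34 of those equalled another gene. Nested peaks had a higher median fold enrichment than the other intronic peaks, 7.35 against 4.90 in the shALKBH5 list and 7.66 against 5.11 in the shCtrl list. They also overlapped the other list more often, at 69.8% against 55.9% and 76.4% against 61.5%. These differences were not tested.

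Examples show the range of inner genes. AC023043, a noncoding RNA in an intron of MOCOS, the molybdenum cofactor sulfurase, was covered exactly (chromosome 18, 36189824 to 36190272), with fold enrichments of 10.7 in shALKBH5 and 16.0 in shCtrl cells. AP001160 in TMEM223 (chromosome 11, 62786023 to 62786785) was at 11.3 and 8.94. RPL7AP22, a pseudogene of ribosomal protein L7a inside PKP4, was at 35.5 and 11.5, but its own level averaged 0.0682 FPKM over the input libraries. AC091133 in IGF2BP1 was at 8.08 and 47.2. PGAM1P7 in SLC9A7 was at 14.6 and 13.9, and TPM3P6 in ZNF813 at 5.14 and 6.04.

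Of the 137 inner genes that a peak equalled, only 26 reached the 0.5 FPKM mean needed for the expression test. Background for such counts is given by all genes: 7917 of 12985 (61%) passed an adjusted p of 0.05 by limma, the test used throughout, with 34.7% higher and 26.2% lower in shALKBH5 cells. Among the 26, 14 passed (53.8%), 10 higher and 4 lower. AC023043 stood at 10.9, 12.4 and 8.97 FPKM in shALKBH5 libraries and at 4.85, 4.42 and 4.65 FPKM in shCtrl libraries. All its shALKBH5 values were above all shCtrl values, and it rose with a log2 fold change of 1.19 (SE 0.114, limma adjusted p = 9.03e-05). Its host MOCOS moved the same way, from 19.5 ± 0.232 to 45.8 ± 1.28 FPKM (SD, n = 3), giving a log2 fold change of 1.23 (limma adjusted p = 6.70e-07). AP001160 rose by a log2 fold change of 1.61 (SE 0.153, limma adjusted p = 8.50e-05), from 1.57, 1.33 and 1.07 FPKM to 4.93, 3.98 and 3.79 FPKM, and its host TMEM223 by 0.51 (limma adjusted p = 1.36e-04). PGAM1P7 rose from 0.562 ± 0.292 to 1.28 ± 0.356 FPKM (SD, n = 3), with a log2 fold change of 1.12 (limma adjusted p = 0.0215). That call was lost without shALKBH5 replicate 1 or 3 or shCtrl replicate 2 or 3, where the value ran from 0.84 to 1.10, and with no filter on low values. Its host SLC9A7, a sodium-proton exchanger, had a log2 fold change of -0.09 that did not pass the test, other than without shCtrl replicate 1, at -0.18.

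Intronic peaks lay along the whole length of their host genes. With each gene divided into 10 equal parts from its 5' end, the first part held 300 peaks (13.5%) in the shALKBH5 list and 256 (12.2%) in the shCtrl list. The eighth and ninth parts held similar numbers, 276 (12.4%) and 280 (12.6%) in the shALKBH5 list and 266 (12.7%) and 267 (12.8%) in the shCtrl list. The fewest were in the third part of the shALKBH5 list, with 168 (7.55%), and in the fifth part of the shCtrl list, with 154 (7.35%). The median length of the host genes was 45914.5 bp in the shALKBH5 list and 47200 bp in the shCtrl list. This was longer than for genes with 3'UTR peaks (32834 and 32746.5 bp) or 5'UTR peaks (35979 and 36713 bp). It was near that for genes with coding exonic peaks (45972 and 47837.5 bp). The median host level was 3.34 and 3.62 FPKM, against 2.92 and 2.91 FPKM for genes with 3'UTR peaks and 1.66 and 1.66 FPKM for genes with coding exonic peaks. Genes with 5'UTR peaks were nearer, at 3.27 and 3.17 FPKM. For 91.7% and 90.8% of the intronic peaks the host also carried a peak of another annotation. The remaining hosts, 138 and 145 genes, carried intronic peaks and no other kind.

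**Figure D2:**
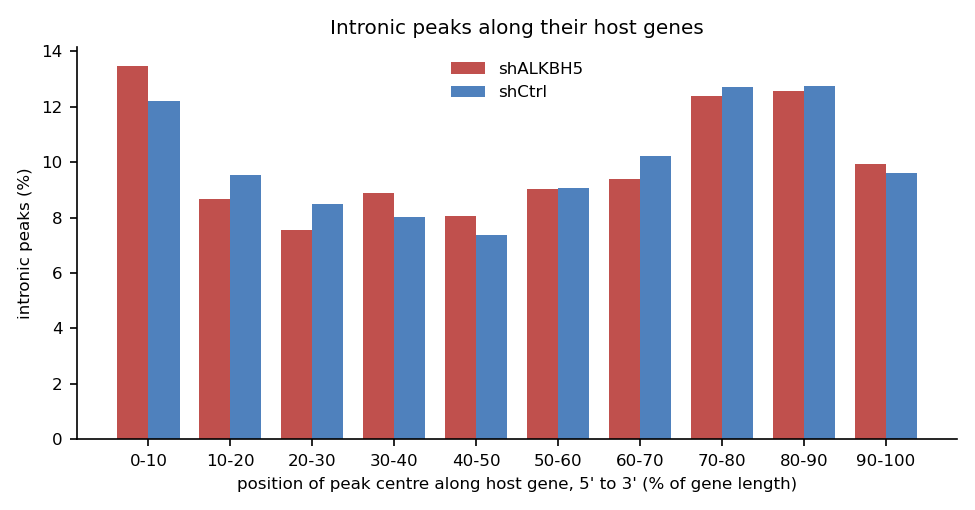
Percentage of intronic peaks (y axis) whose centre falls in each of 10 equal parts of the host gene from 5' to 3' (x axis, percent of gene length), in the shALKBH5 (red) and shCtrl (blue) lists. The first part holds 13.5% and 12.2% of the peaks, and the eighth and ninth parts hold 12.4% and 12.6% in the shALKBH5 and 12.7% and 12.8% in the shCtrl list.

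Most host genes had 1 intronic peak, 1134 in the shALKBH5 list and 1143 in the shCtrl list, and 25 and 19 genes had 5 or more. The 5 genes with the most, summed over the lists, were AC244517, SPG7, PDE10A, ATP10A and BRCA1. AC244517 had 9 and 11 peaks, all inside 2 protocadherin pseudogenes, PCDHB18P and PCDHB19P, on chromosome 5. BRCA1, which acts in DNA repair, had 7 and 6, all inside AC060780 (ENSG00000267002, peaks on chromosome 17, 43148368 to 43170021), with folds from 1.97 to 41.6 and from 6.15 to 24.3. The peaks of SPG7, a mitochondrial protease (6 and 9), of PDE10A, a cyclic nucleotide phosphodiesterase (6 and 8), and of ATP10A, a phospholipid flippase (6 and 7), lay inside no other listed gene of their strand.

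Levels of these hosts are given beside their peaks, where 61% of all genes passed the test, and AC244517 was not tested. PDE10A averaged 1.505 ± 0.0229 FPKM in shALKBH5 libraries and 0.574 ± 0.0532 FPKM in shCtrl libraries (SD, n = 3), and the groups did not overlap. It rose with a log2 fold change of 1.25 (SE 0.117, limma adjusted p = 7.80e-05), while the number of its intronic peaks was 6 against 8. ATP10A fell from 1.06, 1.03 and 1.01 FPKM to 0.464, 0.434 and 0.480 FPKM, a log2 fold change of -1.02 (limma adjusted p = 3.81e-04). BRCA1 fell from 0.830, 1.20 and 0.812 FPKM to 0.531, 0.369 and 0.425 FPKM, a log2 fold change of -0.94 (limma adjusted p = 5.19e-03), whereas AC060780, in which its intronic peaks lie, rose by 0.50 (limma adjusted p = 5.28e-03). SPG7 rose by 0.30 (limma adjusted p = 0.0303), a call that was lost on leaving out any library other than shCtrl replicate 1, at 0.25 to 0.31, and after rescaling each library by its median ratio to the mean library, at 0.22. With libraries of whole cultures, fewer cells with an RNA and less of it per cell cannot be told apart.

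Across the knockdown, intronic peaks overlapped less than peaks as a whole. They were also shorter, with a median span of 241 bp in both lists against 570 and 571 bp for all peaks. A longer span meets a 1 bp overlap more easily, and the part of span in this difference was not tested. Of the shALKBH5 intronic peaks, 1345 (60.4%, 58.4 to 62.5%) shared 1 bp or more with a shCtrl peak of any annotation on their strand, against 78.1% of all peaks. In the other direction the share was 66.2% (64.1 to 68.2%), or 1386 peaks, against 81.3%. The partner was itself intronic for 1099 (49.4%) and 1101 (52.6%). Where it was not, the partner was most often in a 5'UTR for the shALKBH5 peaks (106, against 72 in a 3'UTR and 68 exonic), and 3'UTR, 5'UTR and exonic partners were near equal for the shCtrl peaks (97, 96 and 92). The 880 and 708 peaks with no partner were weaker calls, with 51.1% and 48.9% at an FDR of at most 0.05, compared with 80.9% and 81.9% of those with a partner.

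Among matched peaks the fold enrichment shifted little on the whole and scattered widely. Over 1270 pairs with an intronic member, the median log2 ratio of folds, shALKBH5 over shCtrl, was -0.06, with the middle 50% between -0.65 and 0.51. Some folds recur within each list, and pairs of them give the same ratio. SRGAP2 and TSGA10, each at 9.8 in shALKBH5 and 10.2 in shCtrl cells, had a log2 ratio of -0.06. The part of the scale of each list in this median was not tested. Over all 32602 pairs the median was -0.05 and the middle 50% lay between -0.38 and 0.34. A ratio above 1 on the log2 scale was found in 148 intronic pairs (11.7%), against 8.88% of all pairs, and a ratio below -1 in 195 (15.4%), against 9.18%. Log2 folds of the groups correlated at r = 0.61 (Spearman's rho 0.58) over the intronic pairs and at r = 0.75 (rho 0.75) over all pairs, a description in which the points share their libraries. With both peaks in introns of the same gene and an FDR of at most 0.05 in both lists, 752 pairs remained, of which 85 had a ratio above 1 and 116 a ratio below -1. At the ends of these 752, HS3ST3B1, a heparan sulfate sulfotransferase, was at 19.6 in shALKBH5 and 3.28 in shCtrl cells, and ANAPC11, a subunit of the anaphase-promoting complex, at 4.99 and 44.7. These 2 were picked after their values were seen, and with 1 list per group neither difference can be tested.

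**Figure D3:**
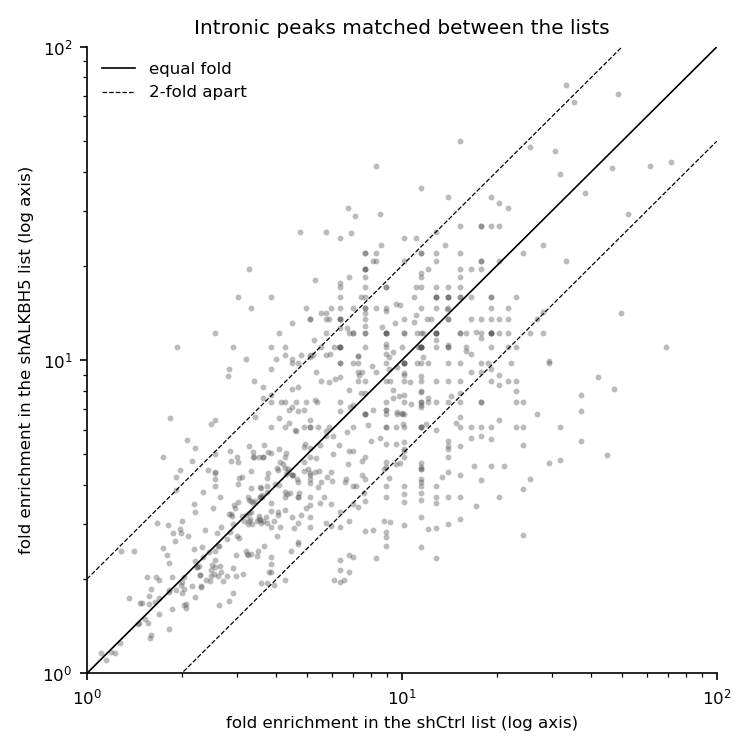
Fold enrichment of IP over input for intronic peaks matched between the lists, shCtrl on the x axis and shALKBH5 on the y axis, both log axes. Each of the 752 points is a pair in introns of the same gene with an FDR of at most 0.05 in both lists, the solid line marks equal folds and the dashed lines folds 2 times apart. Of the pairs, 85 lie above the upper dashed line and 116 below the lower one, and recurring fold values show as rows and columns of points.

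The strongest intronic peaks shared by both lists were in 10 hosts, ranked by the lower fold of the pair. RAB4B, a small GTPase of endosome recycling, led with 71.0 in shALKBH5 and 48.5 in shCtrl cells (chromosome 19, 40785772 to 40786577 in the shALKBH5 list), and its peak also lies within the readthrough gene MIA-RAB4B. PGGHG, a glucosidase, was at 42.9 and 71.5 (chromosome 11, 291256 to 291914), and ZNF707, a zinc finger gene, at 41.6 and 61.3 inside LINC02878. PIGG, an enzyme of GPI anchor synthesis, was at 41.0 and 46.6, and A1BG, a plasma glycoprotein gene, at 66.8 and 35.3 inside AC012313. NDUFS7, a subunit of respiratory complex I, was at 34.3 and 38.3 over the same 1139 bp in both lists. JOSD2, a deubiquitinase, reached 75.9, the highest intronic fold of the shALKBH5 list, against 33.2. ATF6, a transcription factor of endoplasmic reticulum stress, was at 39.2 and 31.9 inside AL391825. TSG101, an ESCRT subunit, was at 46.5 and 30.6 at the pseudogene YWHABP2, and SELENOW, a selenoprotein, at 29.4 and 52.3. The fold was higher in shALKBH5 for 5 of these hosts (RAB4B, A1BG, JOSD2, ATF6 and TSG101) and lower for the other 5.

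Expression of these 10 hosts went both ways. JOSD2 stood at 11.4, 10.9 and 12.7 FPKM in shALKBH5 and at 9.11, 9.04 and 9.35 FPKM in shCtrl libraries, and rose by 0.34 on the log2 scale (limma adjusted p = 2.99e-03). TSG101 rose by 0.29 (limma adjusted p = 4.07e-03) and ZNF707 by 0.43 (limma adjusted p = 8.26e-03). PGGHG fell by 0.48 on the log2 scale (limma adjusted p = 4.16e-03), from 1.73, 1.75 and 1.66 FPKM to 1.18, 1.31 and 1.12 FPKM. RAB4B rose by 0.22 (limma adjusted p = 0.0324), a call lost with any library but shCtrl replicate 1 left out, at 0.19 to 0.24, and after the same rescaling, at 0.14. PIGG, A1BG, NDUFS7, ATF6 and SELENOW did not pass the test, with log2 fold changes from -0.03 to 0.56, although A1BG passed without shCtrl replicate 1, at 0.83. The sign of NDUFS7, ATF6 and SELENOW, all within 0.08 of 0, changed without shCtrl replicate 2, and that of NDUFS7 and SELENOW also after the rescaling. AC012313 (ENSG00000268230), the noncoding gene around the A1BG peak, was at 0.0548, 0.0855 and 0.0405 FPKM in shALKBH5 against 0.0207, 0.0104 and 0.0288 FPKM in shCtrl libraries, under the level tested. A1BG itself was at 1.40, 1.20 and 1.18 against 1.23, 0.661 and 0.667 FPKM, with groups that overlapped.

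Other strong peaks were found in 1 list alone. In the shALKBH5 list these were in HDLBP (fold 30.6), which encodes the RNA-binding protein vigilin, PTPDC1 (24.5, equal to the pseudogene CYCSP24), NOMO3 and NBPF1 (23.3 each) and PLCD4 (22.0). In the shCtrl list they were in CPNE2, a copine (35.7), HSDL1 (26.8) and BRCA1 (24.3). PDCD6, a calcium-binding protein (20.4), and GNA12, a G protein subunit (17.9, over 31752 bp), followed. The BRCA1 peak lay inside AC060780 and the PDCD6 peak inside AC021087. NOMO3 and NBPF1 belong to families of near-identical copies and are uncertain. CPNE2 fell from 4.64, 4.49 and 4.76 FPKM to 1.83, 1.91 and 2.04 FPKM, a log2 fold change of -1.22 (SE 0.0707, limma adjusted p = 8.38e-06), so its level was lower in the group whose list lacked the peak. PLCD4, a phospholipase C, rose from 0.794, 0.750 and 0.963 FPKM to 1.19, 1.24 and 1.19 FPKM, with a log2 fold change of 0.49 (limma adjusted p = 0.0118), in the group whose list held the peak. GNA12 went the other way, with 6.42, 5.69 and 6.35 FPKM in shCtrl libraries and 9.76, 10.6 and 10.6 FPKM in shALKBH5 libraries, a log2 fold change of 0.73 (limma adjusted p = 6.41e-05). So did PDCD6, which rose by 0.34 (limma adjusted p = 1.32e-03), and NBPF1, which fell by 0.35 (limma adjusted p = 3.07e-03). NOMO3 fell by 0.33 (limma adjusted p = 0.0259), a call lost without shALKBH5 replicate 1 or 2 or shCtrl replicate 2 or 3, at -0.33 to -0.27, and with no filter on low values. HDLBP rose by 0.18 (limma adjusted p = 0.0204), a call lost without shALKBH5 replicate 1 or 2, at 0.16 in each case, after the rescaling, at 0.10, and in the fits with no filter on low values or no trend. PTPDC1 (0.36) and HSDL1 (-0.17) did not pass, although PTPDC1 passed without shCtrl replicate 3, at 0.44, with a pseudocount of 1, at 0.18, and with no trend, and HSDL1 without shCtrl replicate 1, at -0.30. Hosts that passed were thus higher in the group whose list held the peak in some cases (PLCD4, CPNE2, BRCA1, HDLBP). They were lower there in others (GNA12, PDCD6, NBPF1, NOMO3), where 61% of all genes passed. For BRCA1 the source of the peak is uncertain, since AC060780 around it rose by 0.50 (limma adjusted p = 5.28e-03). BRCA1 also had 7 intronic peaks in the shALKBH5 list. The level of a host can set whether a peak is called, and its part in these absences was not tested.

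The comparison table held 134 intronic rows in 130 genes, with a median span of 357.5 bp. Of these rows, 87 overlapped peaks of both lists, 29 a shALKBH5 peak alone and 18 a shCtrl peak alone, and 71 overlapped an intronic peak in each list. MATR3, a nuclear matrix protein, RAB3GAP2, ERCC8 and ERCC6L2 had 2 rows each. Of the 107 hosts tested for expression, 68 passed (63.6%, against 61% of all genes), 40 higher and 28 lower.

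The 5 hosts of such rows that fell most were HYI, CRMP1, PRR5L, PALM and RTEL1. HYI, a hydroxypyruvate isomerase, fell from 7.56, 6.04 and 6.53 FPKM to 1.59, 1.44 and 1.51 FPKM, a log2 fold change of -2.07 (SE 0.0953, limma adjusted p = 2.97e-06), and its intronic peak was at 2.83 in shCtrl and 1.70 in shALKBH5 cells (chromosome 1, 43452500 to 43452887 in the table). CRMP1, a cytosolic protein of axon guidance signalling, fell from 8.30, 8.28 and 8.32 FPKM to 2.24, 2.35 and 2.31 FPKM, a log2 fold change of -1.81 (limma adjusted p = 6.37e-07). Its intronic peak was at 20.4 in shCtrl and 2.80 in shALKBH5 cells (chromosome 4, 5826236 to 5826535). PRR5L, a component of mTOR complex 2, had a log2 fold change of -1.38 and PALM, a membrane protein, of -1.33, and RTEL1, a helicase that protects telomeres, of -0.95, all past the test. The PALM row overlapped a shCtrl peak alone (fold 3.63). The PRR5L and RTEL1 rows overlapped only shALKBH5 peaks annotated as exonic and 3'UTR.

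The 5 that rose most were USP53, MOCOS, ZNF276, SLC25A44 and LIME1. USP53, of the ubiquitin peptidase family, rose from 1.56, 1.99 and 1.37 FPKM to 4.77, 3.80 and 4.34 FPKM, a log2 fold change of 1.35 (SE 0.145, limma adjusted p = 1.57e-04), while its matched intronic peak was at 10.2 in shCtrl and 2.97 in shALKBH5 cells. ZNF276 rose by 0.99 (limma adjusted p = 2.06e-04) and its row overlapped a shCtrl peak alone (fold 15.3). SLC25A44, a mitochondrial carrier, rose from 10.5 ± 0.468 FPKM in shCtrl to 18.9 ± 0.252 FPKM in shALKBH5 libraries (SD, n = 3), with a log2 fold change of 0.84 (limma adjusted p = 7.87e-06), and its peak was at 2.64 and 3.66. LIME1 rose by 0.75 (limma adjusted p = 0.0278), a call lost without shALKBH5 replicate 2 or 3 or shCtrl replicate 1 or 2, where the value ran from 0.56 to 0.81, and with no filter on low values. Among the 10 hosts, a lower fold in shALKBH5 than in shCtrl cells was thus seen both with a lower host level (HYI, CRMP1) and with a higher one (USP53, MOCOS).

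**Figure D4:**
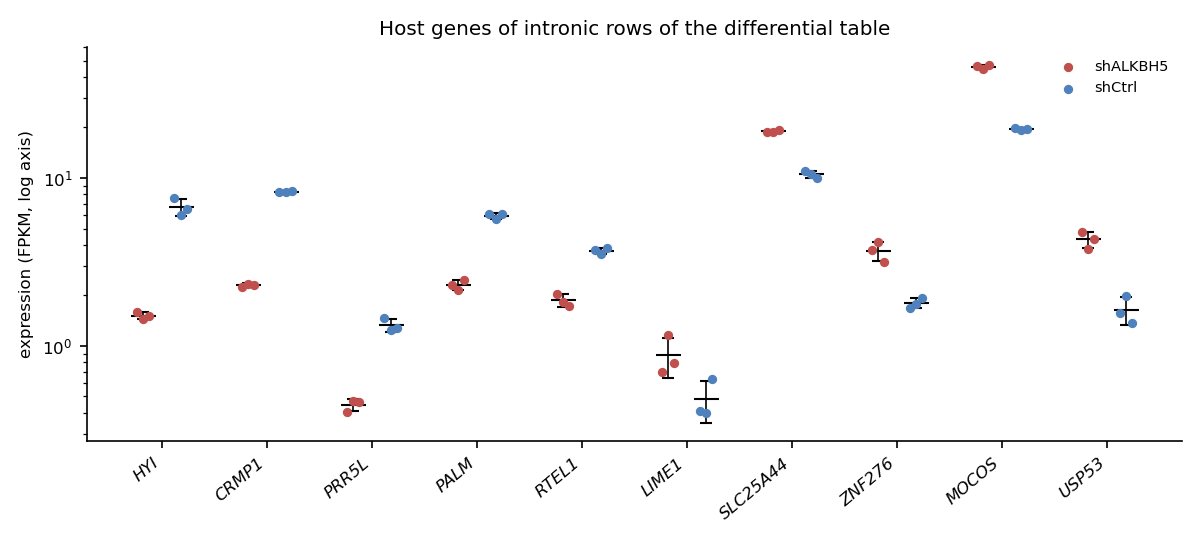
Expression in FPKM (log axis) of 10 host genes of intronic rows of the comparison table, the 5 that fell most (left) and the 5 that rose most (right). Points are the 3 input libraries of shALKBH5 (red) and of shCtrl (blue), with the mean as a black bar and the SD as whiskers. The genes were picked among those that passed the test for the size of their change, and HYI runs from 1.44 to 1.59 FPKM in shALKBH5 against 6.04 to 7.56 FPKM in shCtrl libraries.

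Host genes as a whole changed about as often as other genes. Of 2158 hosts of either list, 1823 were tested and 1114 passed (61.1%, against 61%), 597 higher (32.7%, against 34.7%) and 517 lower (28.4%, against 26.2%). The median log2 fold change was 0.04 over hosts and 0.09 over all genes tested. That rescaling moved the median of all genes by -0.07 and turned the balance, to 480 higher and 598 lower among hosts and to 3769 higher and 3913 lower among all genes. Hosts in both lists gave 265 higher and 228 lower of 785 tested, hosts in the shALKBH5 list alone 174 and 138 of 524, and hosts in the shCtrl list alone 158 and 151 of 514. Values of the groups did not overlap in 1272 of the 1823, while the share over all genes was 67%. Over 636 matched pairs of 533 hosts, the log2 fold ratio and the host's expression change had r = -0.11 and rho = -0.10, a description over pairs that share the input libraries on both axes.

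Of all genes in the expression table, 2130 of 29696 (7.17%) held an intronic peak in either list, and of the genes tested, 1823 of 12985 (14.0%). Genes that write, erase or read m6A held intronic peaks in 5 of 22 cases, all in both lists. HNRNPA2B1, a nuclear RNA-binding protein linked to m6A, had 1 intronic peak per list (fold 2.31 in shALKBH5, 2.55 in shCtrl) and fell from 47.1, 55.8 and 49.0 FPKM to 31.6, 30.0 and 29.7 FPKM, a log2 fold change of -0.73 (SE 0.0667, limma adjusted p = 7.07e-05). IGF2BP3, a cytoplasmic reader, had 1 peak of fold 22.0 in the shALKBH5 list and 3 peaks of fold 3.83 to 14.0 in the shCtrl list, and fell by 0.96 on the log2 scale (limma adjusted p = 5.70e-04). IGF2BP1 rose from 20.1, 20.8 and 20.2 FPKM to 24.3, 24.6 and 23.9 FPKM, a log2 fold change of 0.25 (limma adjusted p = 9.09e-04). YTHDC1, the nuclear reader (folds 2.45 and 3.50), and YTHDF2, a reader that promotes mRNA decay (4.08 and 11.5), had log2 fold changes of 0.21 and -0.07 that did not pass, although YTHDC1 passed without shCtrl replicate 2, at 0.38. Over the 22 genes, 6 were higher and 5 lower, against 34.7% and 26.2% of all genes.

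Splicing regulators formed the second group. Of 17 SR protein and CLK kinase genes, 5 held an intronic peak and 4 did so in both lists, and of 19 hnRNP genes, 5 held one and 3 did so in both. TRA2B, a splicing activator, had a peak over the same 151 bp in both lists with a fold of 2.44 in each (chromosome 3, 185926754 to 185926904). It fell from 9.79, 10.9 and 10.9 FPKM to 9.01, 9.03 and 8.53 FPKM, a log2 fold change of -0.25 (limma adjusted p = 9.27e-03). CLK3, a kinase of SR proteins, had peaks of 4.29 and 4.47 and a log2 fold change of 0.15 that did not pass the test (limma adjusted p = 0.0587) but passed with no filter on low values or no trend. SRSF4 (peak folds 2.62 and 4.68) fell by 0.30 on the log2 scale (limma adjusted p = 1.21e-03). SRSF9 (2.71 and 3.05) fell by 0.18 (limma adjusted p = 0.0296), a call lost without shALKBH5 replicate 1 or 2 or shCtrl replicate 1 or 3, at -0.18 to -0.14, and in the fits with no filter on low values or no trend. PTBP1, a splicing repressor, had a peak of 2.05 and 2.48 and fell from 62.9, 58.2 and 58.2 FPKM to 46.2, 45.9 and 46.7 FPKM, a log2 fold change of -0.37 (limma adjusted p = 2.27e-04). HNRNPL, also a splicing regulator (1.86 and 2.94 at 2 peaks in shALKBH5 and 2.67 at 1 peak in shCtrl cells), fell by 0.53 (limma adjusted p = 5.64e-05). HNRNPU fell by 0.29 (limma adjusted p = 0.0217), a call lost without shALKBH5 replicate 2 or 3 or shCtrl replicate 3, at -0.29 to -0.27, and with no filter on low values. Over the whole lists, 2 SR or CLK genes were higher and 11 lower of 16 tested (median log2 fold change -0.25), and 1 hnRNP gene was higher and 14 lower of 18 (median -0.32), whether or not they held a peak. Over all genes 34.7% were higher and 26.2% lower, and the median was 0.09.

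Cleavage and polyadenylation factors cut pre-mRNA and add its tail, and can use sites within introns. Of 20, 6 held an intronic peak, 3 of them in both lists, and 5 of the 6 passed the expression test (against 61% of all genes), 4 higher and 1 lower. PCF11, which links cleavage to transcription termination, had a peak near its start in both lists (fold 5.40 in shALKBH5, 4.94 in shCtrl cells, chromosome 11, 83157917 to 83158307 in the shALKBH5 list). It rose from 1.27, 1.37 and 1.30 FPKM to 2.68, 2.38 and 2.58 FPKM, a log2 fold change of 0.90 (SE 0.0857, limma adjusted p = 8.42e-05). CLP1, a kinase of the same complex, had 2 and 3 peaks, all inside AP000662, and rose by 0.46 (limma adjusted p = 6.25e-05). NUDT21 had a peak over the same 4394 bp in both lists (5.90 and 6.70) and a log2 fold change of 0.03 that did not pass the test. Over the 20 factors, 8 were higher and 3 lower, where all genes gave 34.7% and 26.2%.

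**Figure D5:**
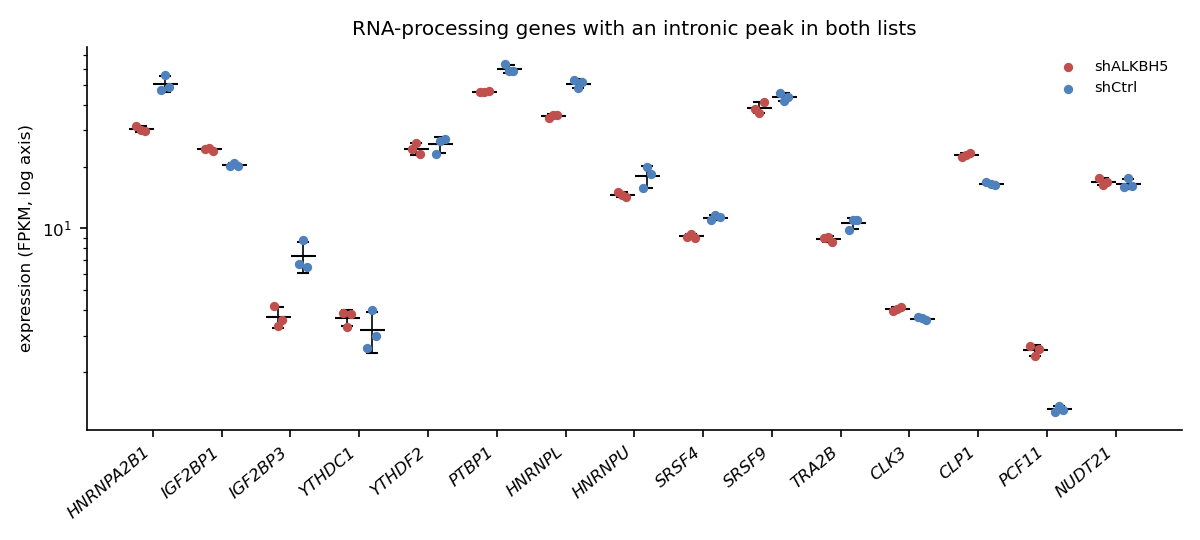
Expression in FPKM (log axis) of 15 RNA-processing genes with an intronic peak in both lists. Points are the 3 input libraries of shALKBH5 (red) and of shCtrl (blue), with the mean as a black bar and the SD as whiskers. HNRNPA2B1, PTBP1 and HNRNPL lie lower in every shALKBH5 library, CLP1 and PCF11 lie higher, and YTHDF2, YTHDC1 and NUDT21 overlap.

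Coding hosts of snoRNAs, small RNAs that are processed out of introns, held them in 2 of 22 cases: RPSA, in both lists (fold 2.22 and 2.50), and RCC1, with 2 shCtrl peaks inside SNHG3. RPSA, a ribosomal protein gene, was at 765, 783 and 776 FPKM in shALKBH5 and at 708, 617 and 687 FPKM in shCtrl libraries, a log2 fold change of 0.21 (limma adjusted p = 0.0112) that dropped to 0.13 and no longer passed after rescaling, nor did it pass with no filter on low values. SNORA9B, a snoRNA gene in DDX55, was equalled by a shALKBH5 peak of 133 bp (fold 14.7), a case picked after its values were seen. Of 14 melanoma kinase and adhesion genes, BRAF, ITGB1 and ITGB5 held 1 intronic peak each, in 1 list each and matched in neither direction. The BRAF peak (fold 8.94) and the ITGB5 peak (fold 3.19) did not reach an FDR of 0.05. Of 13 long genes, EXOC4, MAGI1, MAGI2 and WWOX held intronic peaks. WWOX, which spans a fragile site, had a peak of over 11 kb in both lists (11182 and 11152 bp, folds 2.94 and 6.38) and a log2 fold change of -0.14 that did not pass the test. ABCA1, the cholesterol transporter, held no intronic peak in either list. Its mean of 0.301 and 0.0400 FPKM in shALKBH5 and shCtrl libraries was under the level tested.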

How the data were processed

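RNA-Seq and MeRIP-Seq data of A375 cells were grouped by their sample labels. The authors deposited FPKM per input library, with an aligner, read counter and annotation not given in the sources used here. The study's methods name the R package edgeR for expression levels and differential expression, with no version, and do not say how it led to FPKM. The authors' peak lists, 1 per group, give a fold enrichment of IP over input, the position and span of each peak in bp, and log10 p and log10 FDR values, which are treated as a score and used as thresholds only. The peak caller and the pooling of libraries are not given in the sources used here, and the labels name mm10. A further deposited table holds the authors' fold changes, p-values and FDR for peaks between groups, and the expression table the same for genes. These were not used. Starts counting from 0 were changed to count from 1.

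Expression was tested with limma 3.58.1 (lmFit, eBayes with trend) in R 4.3.3 on log2(FPKM + 0.1), as a two-sided comparison of 3 against 3 input libraries, on genes averaging 0.5 FPKM or more, with Benjamini-Hochberg adjustment over all 12985 genes. Fold changes on this scale understate changes of low genes. The test was first tried on simulated data with known changes. Low FPKM values showed no steps of whole reads (commonest ratio 0.592% and 0.635% of low values). No pair of libraries shared over 0.123% of its values. Overlaps of peaks (1 bp or more, strand kept) were found with Python 3.11.15, numpy 2.4.6, pandas 2.3.3 and scipy 1.17.1, and each peak was matched at most once, with larger overlaps paired first. Figures used matplotlib 3.10.9.

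The members, gene lists, rules and alternatives were chosen with earlier results of these data known. Named genes were hosts of the 10 strongest shared peaks, of the 5 strongest peaks of each list with no overlap, the 5 hosts with most peaks, the 5 highest and 5 lowest hosts of the comparison table, up to 6 genes per list with peaks in both lists, ALKBH5 and ABCA1. Genes nested around named peaks were added. Alternatives were pseudocounts of 1 and 0.01, other filters, rescaling, a replicate block, no trend, each library left out, stricter or shorter peaks and other overlaps. Motifs within whole peaks were not analysed, as no genome was used, and the search in RefSeq start windows was added after the data were seen.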

Additional observations from a re-analysis of the deposited data

How the results depend on the processing

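Shares of intronic peaks depended on the peaks kept. At an FDR of at most 0.05 they were 3.91% (shALKBH5) and 3.87% (shCtrl), with a fold of 2 or more and an FDR no higher than 0.01 they were 3.43% and 3.41%, and among spans of at most 10 kb they were 5.32% and 5.20%. Overlap with the other list fell to 32.0% and 34.9% when 50% of both spans had to be shared, and was 64.8% and 70.2% with the stricter peaks on both sides. These overlap shares cover intronic peaks alone. Median fold ratios kept their sign in the 3 alternatives. Of the host gene calls, the stricter peaks kept fewer hosts (959 tested), with 593 passing (61.8%, against 61% of all genes). Of these, 332 were higher (34.6%, against 34.7%) and 261 lower (27.2%, against 26.2%). Leaving out each library in turn gave 946 to 1096 hosts passing (499 to 601 higher, 443 to 514 lower). For these fits and the replicate block, shares over all genes are not given here, so the counts do not set hosts apart. Replicate numbers did not pair the libraries (correlations of deviations for the same number -0.05 to 0.06), and the replicate block gave 991 hosts passing, 531 higher and 460 lower. Under it RAB4B (limma adjusted p = 0.0716), SPG7 (0.0779) and AP000580 (0.0517) did not pass, and A1BG did (0.0398). With no filter on low values, HDLBP, HNRNPU, LIME1, MIA-RAB4B, NOMO3, PGAM1P7, RPSA, SRSF9, TPM3P6, AP000580 and AL031281 no longer passed and CLK3 did (limma adjusted p from 0.0478 to 0.145 over these genes). With no trend, HDLBP, SRSF9, MIA-RAB4B and AL031281 no longer passed and CLK3 and PTPDC1 did (0.0190 to 0.0770). With a pseudocount of 1, AL031281 no longer passed (0.0512) and PTPDC1 did (0.0483). Over the 70 named genes tested, 803 of 898 alternative values kept direction and side of the test, 70 in 14 genes no longer passed, 12 in 8 genes newly passed, and 13 in 7 genes changed direction, of which 0 had passed the test. After rescaling, the log2 fold change was -0.0397 for NDUFS7, -0.0437 for NUDT21, -0.0372 for RILPL1, -0.0432 for LINC02878 and -0.00579 for SELENOW. Leaving out single libraries gave -0.0371 to 0.111 for NDUFS7, -0.0918 to 0.0436 for ATF6, -0.00285 to 0.116 for SELENOW, -0.13 to 0.25 for LINC02878 and -0.59 to 1.27 for AC021087. The causes were not tested. A motif search within whole peaks and an overlap of peak blocks were not run, because no genome was used and the peaks have no blocks. The lack of read counts and of values per IP library limits every peak value.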
